A study of Mus musculus with 18 samples.

Results

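The germ cell niche of the testis was described through 10 secreted signals, Gdnf, Kitl, Fgf2, Fgf9, Cxcl12, Bmp4, Wnt5a, Csf1, Igf1 and Inhba, which were chosen by symbol and matched through their NCBI gene numbers. All 10 were found among the 22657 genes of the table, and 9 of them reached at least 1 FPKM in at least 3 samples, as did 15790 genes in all. FPKM relates the reads of a gene to its length and to the depth of the library. The remaining member, Fgf9, was listed at 0.17 FPKM or less in every sample.

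RNA-seq was done on 18 samples of cultured testes from ICR mice, 3 in each of 6 groups. The groups A0, A10 and A50 held testes from age-matched mice without busulfan. They were cultured with 0, 10 or 50 μg/mL alginate oligosaccharides (AOS), short chains of alginate from brown seaweed. B0, BA10 and BA50 were testes cultured with the same concentrations, taken 2 weeks after the mice had received 40 μg busulfan per g body weight once at 3 weeks of age. All testes, controls included, were kept for 48 h in DMEM/F12 medium with 10% FBS. The methods give 6 testes per treatment and 3 repeats, and do not say whether a library came from 1 testis or from several, so the p-values measure the spread between these samples. The testes came from juvenile mice and were whole organs, in which fewer cells of a type and less RNA per cell cannot be told apart.

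Spermatogonial stem cells lie on the basement membrane of the seminiferous tubule and depend on signals from the somatic cells around them. Sertoli cells are a source of GDNF, which acts through the receptor GFRA1 with RET and keeps stem cells renewing. They are also a source of KIT ligand (Kitl), which acts through KIT on differentiating spermatogonia. FGF2, CXCL12, WNT5A, CSF1 and IGF1 from Sertoli, peritubular, interstitial or macrophage sources are also known to act on spermatogonia, and BMP4 and activin A, the dimer encoded by Inhba, belong to the TGF-β family. Busulfan, an alkylating agent used against leukaemia, depletes proliferating germ cells.

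In these cultures, 6 of 6 tested spermatocyte markers and 3 of 5 tested spermatogonium markers fell after busulfan, averaged over the AOS concentrations. The limit was a limma adjusted p under 0.05, at which 24.8% of all genes fell. Stra8, which marks germ cells entering meiosis, was 14.2 to 35.4 FPKM in the 9 samples without busulfan and at most 0.12 FPKM in the 9 busulfan samples, and Sall4, a gene of undifferentiated spermatogonia, was at least 0.93 and at most 0.02 FPKM. Uchl1, another spermatogonium marker, differed by -0.03, and the summed FPKM of the 6 spermatogonium markers was 73.0 to 152 without busulfan, 40.3 to 60.6 in B0, 48.8 to 57.9 in BA10 and 68.6 to 102 in BA50. Most of this sum was Uchl1 in the busulfan samples, at 37.24 to 99.98 FPKM, where Zbtb16 was at most 2.9 and Dmrt1 at most 1.03 FPKM. In BA50 compared to B0 Uchl1 differed by 0.83, while the median of the 5 tested spermatogonium markers was 0.01. The summed FPKM of 6 spermatocyte markers was 206 to 291 without busulfan and 21.2 to 45.6 with it. Sertoli cell markers were present in every sample, with a sum of 10 genes of 1086 to 4247 FPKM without busulfan and 2891 to 5209 with it, although Amh stayed at or below 0.59 FPKM. Most of this sum was Clu, at 882 to 3714 FPKM without busulfan and 2435 to 4513 with it. Sox9 was 4.71 to 18.6 and 13.15 to 23.46 FPKM. The sum of 7 Leydig cell markers was 707 to 1169 FPKM without busulfan and 935 to 2285 with it. At the same limit 1 of 6 tested Leydig markers (Star, 0.75), 1 of 9 Sertoli markers and 3 of 5 endothelial markers rose. Among all genes 13.3% rose. A10 replicate 3 had the lowest Sertoli sum, 1086 FPKM, and BA50 replicate 2 had low macrophage and stromal fibroblast sums, 277 and 205 FPKM, with the highest spermatid sum, 10709 FPKM. The 3 samples of B0 held a summed FPKM of 5 fat cell markers of 37.1 to 237 and of 4 epithelial markers of 69.2 to 179, while no other group went above 15.7 and 43.9. Of the 4 epithelial markers, Epcam went the other way, at -0.27 in B0 compared to A0. It fell by 0.45 after busulfan averaged over AOS, where the other 3 rose. The part of these cells in the niche signal values was not tested.

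Windows of 250 bases before the RefSeq start sites (build GRCm38.p6) were found for 9 of the 10 members, all but Wnt5a. Those of Gdnf and Csf1 are shown because both genes were higher after busulfan and these windows lie outside annotated exons. The first Gdnf window is chr15:7809798-7810047 on the plus strand, just upstream of the gene. The second is chr15:7813477-7813726 on the plus strand, before a downstream start site and within an intron of the gene. The Csf1 window is chr3:107760470-107760719, upstream of the gene on the minus strand. Capitals mark the TATA box, searched as TATAAA, the CCAAT box under the letters of its name, and the GC box, searched as GGGCGG, all on both strands and written 5′ to 3′ in the direction of the gene.
Gdnf, first start site: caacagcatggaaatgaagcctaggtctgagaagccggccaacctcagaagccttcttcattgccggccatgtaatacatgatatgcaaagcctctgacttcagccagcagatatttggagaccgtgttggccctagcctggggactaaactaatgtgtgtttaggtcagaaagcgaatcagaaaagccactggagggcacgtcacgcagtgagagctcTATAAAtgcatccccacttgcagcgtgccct
Gdnf, second start site: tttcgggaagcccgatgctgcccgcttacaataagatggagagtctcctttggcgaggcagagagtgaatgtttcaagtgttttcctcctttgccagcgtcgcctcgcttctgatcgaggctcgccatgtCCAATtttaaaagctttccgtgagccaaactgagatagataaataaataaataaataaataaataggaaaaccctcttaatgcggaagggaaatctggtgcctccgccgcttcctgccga
Csf1: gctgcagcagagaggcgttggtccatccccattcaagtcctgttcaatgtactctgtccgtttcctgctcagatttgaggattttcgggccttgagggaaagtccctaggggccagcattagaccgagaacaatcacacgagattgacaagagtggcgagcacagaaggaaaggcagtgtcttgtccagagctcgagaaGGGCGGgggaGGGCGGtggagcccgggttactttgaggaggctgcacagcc
The first Gdnf window had a TATA box near its start site and the second had none but held a CCAAT box. The Csf1 window had no TATA box and held 2 GC boxes. Of all 32851 RefSeq windows of this length, 12.4% had a TATA box, 33.9% a CCAAT box and 32.7% a GC box. Among the 10 windows of the members, 3 had a TATA box, 2 a CCAAT box and 5 a GC box. An E-box (CACGTG) stood in 1 member window and in 6.02% of all windows. The cAMP response element (TGACGTCA) stood in 0 member windows and in 1.55% of all windows. No searched motif stood in the windows of all members that were higher after busulfan. A GC box stood in those of Kitl, Fgf2 and Csf1, and a TATA box in the first of Gdnf and that of Kitl. These matches describe letters only.

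Gdnf, the stem cell renewal signal, was the member with the clearest difference. Its FPKM was 3.2, 4.86 and 4.45 in A0, then 3.79, 4.53 and 3.44 in A10 and 2.72, 4.17 and 3.46 in A50. In busulfan testes it was 5.31, 5.73 and 5.57 in B0, then 6.99, 7.58 and 5.84 in BA10 and 10.74, 10.39 and 6.8 in BA50. Every busulfan sample was therefore above every sample without busulfan, which held for 0.513% of the genes tested. The mean was 3.85 ± 0.704 FPKM without busulfan and 7.22 ± 2.04 FPKM with it (SD, n = 9 each), a ratio of 1.88. Gdnf rose by 0.74 ± 0.10 (SE) in log2(FPKM + 1), averaged over the AOS concentrations, with a limma adjusted p of 2.94e-05. The exact permutation test within AOS concentrations gave p = 0.00025, the smallest it can give. Without A10 replicate 3 and BA50 replicate 2 the rise was 0.69 (adjusted p = 0.000221).

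Kitl, the KIT ligand, was the second member that was higher after busulfan. It stood at 33.69, 45.72 and 38.4 FPKM in A0, at 38.46, 33.28 and 29.15 in A10 and at 28.79, 33.25 and 37.61 in A50. In B0 it was 40.89, 60.85 and 53.4 FPKM, in BA10 58.06, 59.47 and 48.44, and in BA50 53.61, 52.42 and 40.57. Of the 9 busulfan samples 7 lay above the highest sample without busulfan, so the groups overlapped slightly. Kitl rose by 0.54 ± 0.10 (SE) on the log2 scale (limma adjusted p = 0.000409, exact permutation p = 0.00075), from a mean of 35.4 to 52.0 FPKM.

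Csf1 encodes the macrophage growth factor that also acts on spermatogonia through CSF1R. Its values were 59.64, 88.6 and 66.8 FPKM in A0, 63.77, 84.36 and 63.75 in A10, and 47.68, 54.87 and 52.18 in A50. They were 123.9, 78.57 and 92.89 FPKM in B0, 83.02, 83.49 and 76.85 in BA10, and 138.03, 78.87 and 77.63 in BA50. The 2 highest values of all belonged to B0 replicate 1 and BA50 replicate 1, and 3 busulfan samples exceeded the highest without busulfan. Csf1 rose by 0.51 ± 0.13 (SE) (limma adjusted p = 0.00507, exact permutation p = 0.00225).

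Fgf2, a growth factor for stem cells in culture, was low throughout. It was 3.05, 3.46 and 2.85 FPKM in A0, 2.41, 4.19 and 2.12 in A10, and 2.29, 1.02 and 1.96 in A50. After busulfan it was 3.53, 3.55 and 4.21 FPKM in B0, 3.3, 3.54 and 4.35 in BA10, and 3.31, 2.75 and 4.02 in BA50. All 3 samples of A50 lay below every busulfan sample, while A10 replicate 2 was as high as the busulfan samples. Fgf2 rose by 0.40 ± 0.12 (SE) (limma adjusted p = 0.0135, exact permutation p = 0.00525).

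**Figure D1:**
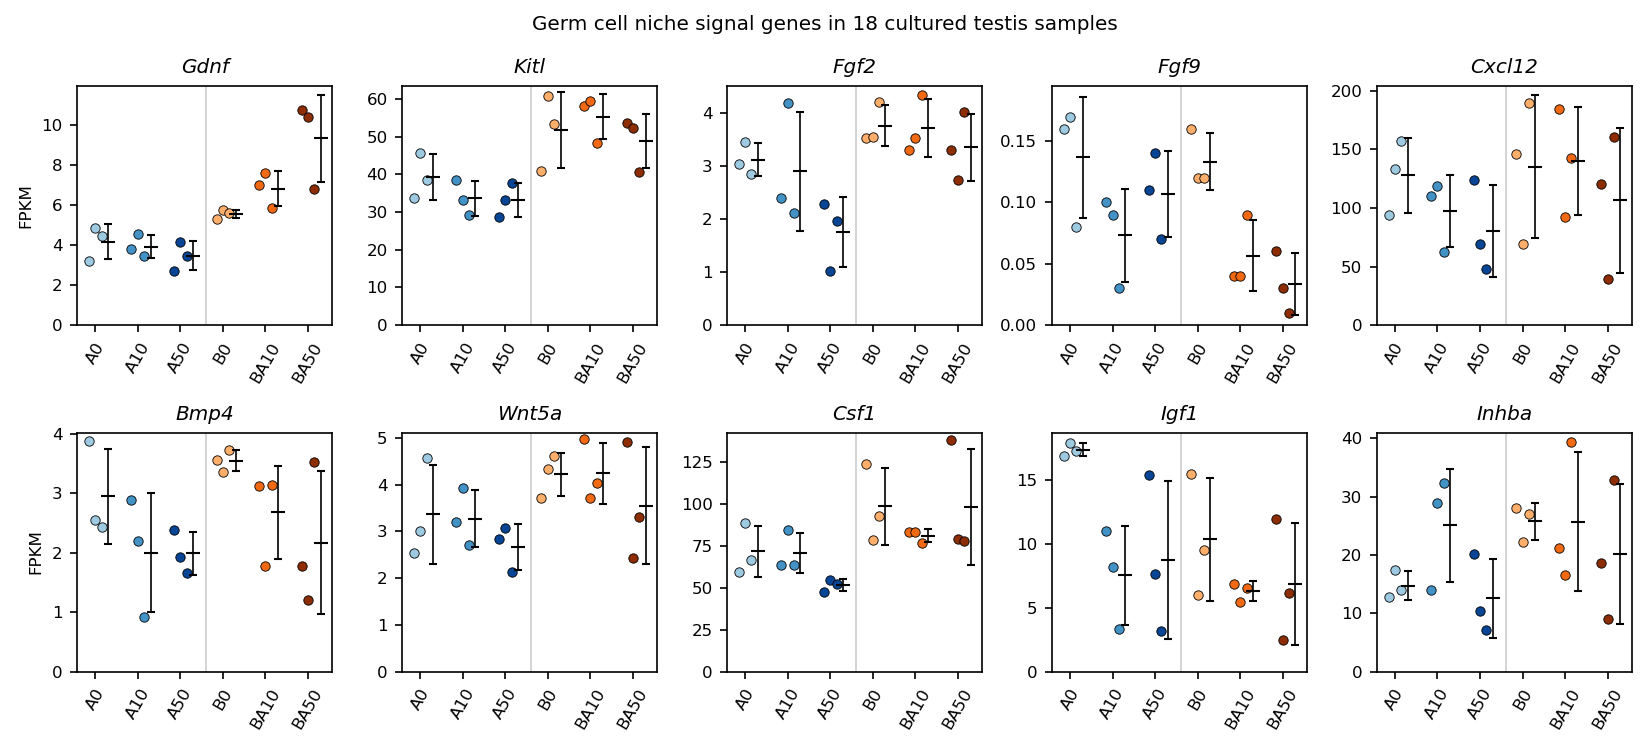
FPKM of the 10 niche signal genes in each of the 18 samples (points), by group on the x axis, with the group mean and SD (n = 3) beside the points. The grey line divides samples without busulfan (left) from busulfan samples (right), each panel has its own FPKM axis from 0, and all 9 Gdnf points on the right, from 5.31 FPKM upwards, lie above the 9 on the left, which reach 4.86 FPKM.

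Taking busulfan averaged over AOS, 4 of the 9 members tested were therefore higher at an adjusted p under 0.05 and 0 were lower, where 13.3% of all genes tested were higher. With the stricter limits of the study, an adjusted p of at most 0.001 and a log2 difference of at least 1, limma called 0 members and 3.61% of all genes, and 5 members had an unadjusted p under 0.05, as did 47.4% of all genes. Without A10 replicate 3 and BA50 replicate 2 the count at an adjusted p under 0.05 was 6, with Inhba (0.68, adjusted p = 0.0357) and Wnt5a (0.31, adjusted p = 0.038) added. No share over all genes was taken for that subset. The median log2 difference was 0.40 over the 9 members and 0.01 over all genes. Over all genes, 2097 were higher and 3921 lower at an adjusted p under 0.05, so 34.8% of the differing genes were higher. This share was 24.0% after rescaling to the same sum, 51.5% after quantile normalization and 2.03% after centring each sample on its Sertoli cell markers. After centring on Sertoli cell markers the median over all genes was -0.21, and Gdnf was then the 1 member that passed (0.51, adjusted p = 0.0207). Kitl (0.32, adjusted p = 0.128), Csf1 (0.28, adjusted p = 0.301) and Fgf2 (0.17, adjusted p = 0.533) did not pass under that centring. With A10 replicate 3 left out as well, Sertoli-centred values passed for Gdnf (0.61, adjusted p = 0.00219) and Kitl (0.40, adjusted p = 0.0179).

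The other 5 tested members did not pass the test for busulfan. Wnt5a, a non-canonical WNT ligand, was 2.54, 3.0 and 4.56 FPKM in A0, 3.19, 3.93 and 2.7 in A10, 2.84, 3.06 and 2.12 in A50, 3.71, 4.34 and 4.61 in B0, 4.97, 3.72 and 4.03 in BA10, and 4.9, 2.43 and 3.3 in BA50. Its difference was 0.29 ± 0.12 (SE), with a limma adjusted p of 0.0673 and an exact permutation p of 0.0238. The groups overlapped, with 3 busulfan samples above the highest sample without busulfan.

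Inhba, the activin βA subunit, varied widely within groups. Its values were 12.72, 17.44 and 14.02 FPKM in A0, 14.06, 28.98 and 32.29 in A10, 20.21, 10.38 and 7.14 in A50, 28.11, 22.19 and 26.97 in B0, 21.25, 16.62 and 39.32 in BA10, and 18.59, 9.09 and 32.81 in BA50. All B0 samples lay above all A0 samples, while A10, BA10 and BA50 overlapped both of these groups. The averaged difference was 0.46 ± 0.26 (SE) (limma adjusted p = 0.167).

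Cxcl12, the chemokine bound by CXCR4, had the highest FPKM of the members. It was 93.82, 132.83 and 157.43 FPKM in A0, 110.14, 119.07 and 62.2 in A10, 123.81, 69.34 and 48.19 in A50, 146.38, 69.52 and 189.88 in B0, 184.41, 92.32 and 142.56 in BA10, and 120.16, 39.13 and 160.61 in BA50. BA50 replicate 2, the library low in stromal markers, held the lowest value of all 18. The busulfan difference was 0.27 with a 95% interval of -0.36 to 0.89 (limma adjusted p = 0.495).

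Bmp4, a TGF-β family ligand, was 3.87, 2.55 and 2.43 FPKM in A0, 2.89, 2.2 and 0.91 in A10, 2.38, 1.93 and 1.66 in A50, 3.55, 3.36 and 3.72 in B0, 3.12, 1.78 and 3.13 in BA10, and 1.77, 1.21 and 3.52 in BA50. B0 was the group with the narrowest spread, and the lowest sample was A10 replicate 3. The busulfan difference was 0.19 (95% interval -0.15 to 0.53, limma adjusted p = 0.361), and its sign turned under Sertoli centring (-0.03).

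Igf1, the growth factor made by Leydig and other somatic cells, was 16.9, 17.91 and 17.23 FPKM in A0, 10.99, 8.22 and 3.36 in A10, 15.37, 7.65 and 3.15 in A50, 15.48, 6.03 and 9.5 in B0, 6.88, 5.44 and 6.56 in BA10, and 11.93, 2.47 and 6.15 in BA50. The 3 samples of A0 were close together, and every sample of the other groups lay below them. The busulfan difference was -0.39 (95% interval -1.03 to 0.24, limma adjusted p = 0.312).

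Fgf9, a Sertoli cell signal of the fetal testis, was 0.16, 0.17 and 0.08 FPKM in A0, 0.1, 0.09 and 0.03 in A10, 0.11, 0.14 and 0.07 in A50, 0.16, 0.12 and 0.12 in B0, 0.04, 0.04 and 0.09 in BA10, and 0.06, 0.03 and 0.01 in BA50. These levels are too low for a fold change to be given. Without the filter on low values, the AOS difference was -0.09 on the log2(FPKM + 1) scale (limma adjusted p = 0.0725), and the exact permutation test within busulfan treatment gave p = 0.00241.

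The busulfan difference was also compared at each AOS concentration. Between B0 and A0, limma passed 0 of 9 members at an adjusted p under 0.05, where 13.8% of all genes passed, and for 1 member, Kitl (0.38), limma gave an unadjusted p under 0.05, 0.0388, as it did for 24.9% of all genes. Gdnf was 0.35 ± 0.17 (SE) higher in B0 (adjusted p = 0.23). The groups B0 and A0 were apart for Gdnf, Fgf2 and Inhba, 3 members with all B0 samples above all A0 samples, where 10.5% of all genes were so placed, and for Igf1 all B0 samples lay below all A0 samples, as for 22.7% of all genes. Between BA10 and A10, Gdnf (0.67 ± 0.17, adjusted p = 0.0141) and Kitl (0.70 ± 0.17, adjusted p = 0.00787) rose, 2 of 9 members against 3.74% of all genes higher. Without A10 replicate 3 and BA50 replicate 2, Gdnf did not pass there (0.59, adjusted p = 0.0573), and after centring on Sertoli cell markers neither Gdnf (0.14, adjusted p = 0.692) nor Kitl (0.18, adjusted p = 0.588) did. The count was 1 of 9 when A10 replicate 3 or BA10 replicate 2 was left out. Between BA50 and A50, Gdnf, Kitl (0.54), Fgf2 (0.68) and Csf1 (0.86) rose, 4 of 9 members against 3.70% of all genes. Kitl did not pass without the same 2 libraries (0.49, adjusted p = 0.073), and Kitl (0.38), Fgf2 (0.52) and Csf1 (0.70) did not pass after centring on Sertoli cell markers (adjusted p = 0.53, 0.435 and 0.27). The count was 2 of 9 when A50 replicate 2 or BA50 replicate 1 was left out. Gdnf, at 1.20 ± 0.17 (SE) with an adjusted p of 0.00013, also passed the stricter limits, which 0.038% of all genes did as higher. This call of Gdnf was lost when A50 replicate 1 or BA50 replicate 1 was left out, and it was lost with both doubted libraries left out (1.12, adjusted p = 0.00104). The exact permutation test of 2 groups of 3 cannot go below p = 0.1, which it gave for Gdnf in the 3 busulfan comparisons. Whether the busulfan difference depended on AOS was tested as a difference between differences, and 0 members passed.

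AOS itself was compared within testes without busulfan and within busulfan testes. In testes without busulfan, 0 of 9 members passed limma at an adjusted p under 0.05 in A10 or A50 compared to A0, and the shares over all genes were 0% and 0%. Before adjustment 1 member in A10 and 2 members in A50 had a limma p under 0.05, as did 15.2% and 15.6% of all genes. These were Igf1 in A10 (-1.23, adjusted p = 0.322) and Fgf2 (-0.61, adjusted p = 0.223) and Igf1 (-1.13, adjusted p = 0.313) in A50. Igf1 in A10 was -0.80 without A10 replicate 3 and BA50 replicate 2 (adjusted p = 0.929). All 3 samples of A50 lay below all of A0 for Fgf2, Bmp4, Csf1 and Igf1, 4 of 9 members, where 23.2% of all genes were so placed. In A10 this was so for Igf1 alone of the members, against 12.2% of all genes.

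In busulfan testes, Gdnf was the member with the greatest AOS difference upwards. All 3 samples of BA10 and all 3 of BA50 lay above all 3 of B0, as did 3.64% and 11.2% of all genes. The mean of Gdnf was 5.54 ± 0.212 FPKM in B0, 6.80 ± 0.885 in BA10 and 9.31 ± 2.18 in BA50 (SD, n = 3). BA10 and BA50 overlapped, since BA50 replicate 3 (6.8 FPKM) lay within the BA10 samples. The differences from B0 were 0.25 ± 0.17 (SE) in BA10 (adjusted p = 0.749) and 0.63 ± 0.17 (SE) in BA50 (adjusted p = 0.104), so neither passed limma over all genes, where 0.0253% and 0.095% of genes did. Before adjustment, limma's p was under 0.05 for 0 members in BA10 and for 1, Gdnf, in BA50, and for 5.05% and 24.3% of all genes. The BA50 difference was 0.55 (adjusted p = 0.265) without A10 replicate 3 and BA50 replicate 2. The difference between the AOS changes of Gdnf with and without busulfan was 0.85 ± 0.25 (SE) at 50 μg/mL (unadjusted p = 0.0036, adjusted p = 0.62) and 0.31 ± 0.25 (SE) at 10 μg/mL (adjusted p = 0.91). At either concentration 0 members and 0% of all genes passed for that difference. Gdnf at 50 μg/mL was the 1 member under 0.05 before adjustment, where 6.28% of all genes were.

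Averaged over both states, 0 of 9 members passed for AOS, and 0.0443% of all genes did. Before adjustment 33.5% of all genes and 2 of the 9 members had a p under 0.05, namely Igf1 (-0.89 ± 0.32, adjusted p = 0.0908, exact permutation p = 0.014) and Bmp4 (-0.44 ± 0.17, adjusted p = 0.107, exact permutation p = 0.0181). Kitl had an AOS difference of -0.10 with a 95% interval of -0.32 to 0.12, and Wnt5a one of -0.12 with an interval of -0.38 to 0.15. Leaving out BA50 replicate 1 brought Igf1 under the limit (adjusted p = 0.0392).

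**Figure D2:**
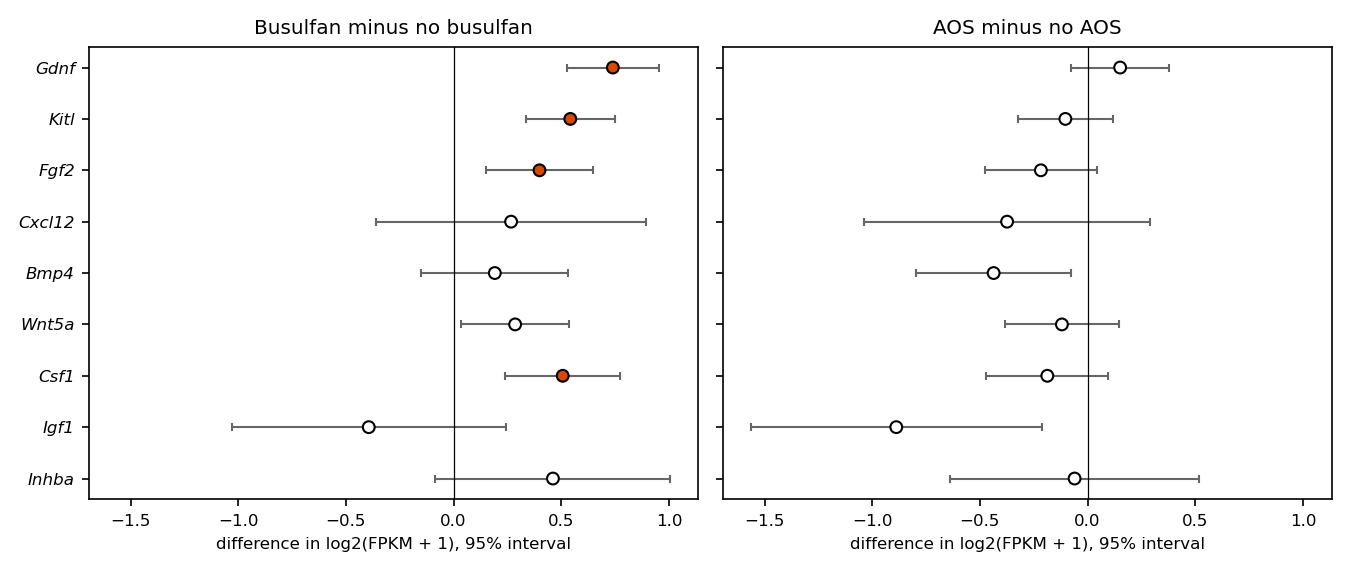
Differences in log2(FPKM + 1) of the 9 members tested, for busulfan averaged over AOS (left) and AOS averaged over busulfan (right), with 95% intervals from limma on a shared x axis. Filled points passed an adjusted p under 0.05: Gdnf, Kitl, Fgf2 and Csf1 on the left, and no member on the right.

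Ordered by group mean, the members did not share 1 order. Gdnf ran from A50 (3.45 FPKM) through A10 and A0 to B0, BA10 and BA50 (9.31 FPKM), and only the steps from A0 to B0 and from B0 to BA10 had no overlap. For Kitl the order began with A50, A10 and A0 and ended with BA50, B0 and BA10, with every neighbouring pair overlapping. Csf1 was lowest in A50 (51.6 FPKM), apart from A10 (70.6 FPKM), and Igf1 was highest in A0 (17.3 FPKM), apart from B0 (10.3 FPKM). In the other 6 members all neighbouring groups overlapped.

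The receptors of these signals are mostly carried by the cells that receive them. Of 22 listed receptors 20 were tested, and after busulfan averaged over AOS 4 rose and 5 fell at a limma adjusted p under 0.05. Of all genes 13.3% rose and 24.8% fell. Kit fell by 0.58 and Ret, the signalling chain of the GDNF receptor, fell by 0.43, with adjusted p-values of 0.0124 and 0.00874. The mean of Ret was 1.91, 1.54 and 1.02 FPKM in A0, A10 and A50, and 0.873, 0.797 and 0.853 FPKM in B0, BA10 and BA50. That of Kit was 14.0, 11.1 and 11.5 FPKM without busulfan, and 10.2, 7.88 and 6.27 FPKM with it, in the same order. Ret in A50, at 0.86 to 1.18 FPKM, overlapped B0 (0.81 to 1.0), BA10 (0.52 to 1.31) and BA50 (0.32 to 1.29). Gfra1, the GDNF-binding chain, was -0.27 and did not pass (adjusted p = 0.172). The activin receptors Acvr2b and Acvr2a fell by 0.34 and by 0.19, and Fgfr4 fell by 0.28. Fgfr1, a receptor of FGF2, rose by 0.42, Acvr1 by 0.36, Cxcr4 by 0.35 and Insr by 0.24. Igf1r (0.17, adjusted p = 0.0588), Bmpr2 (0.18, adjusted p = 0.223), Ror2 (0.20, adjusted p = 0.189) and Csf1r (-0.18, adjusted p = 0.472) did not pass. In B0 compared to A0 the receptors ranged from Ret (-0.62) to Cxcr4 (0.52), and in BA50 compared to B0 from Fgfr2 (-0.93) to Gfra1 (0.22). In both of these comparisons limma passed 0 of the 20 at an adjusted p under 0.05.

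Against 13.3% higher and 24.8% lower among all genes, 4 of 17 tested binding proteins and antagonists rose after busulfan and 0 fell. These were Fst, which binds activin, by 0.63, Inha, the inhibin α subunit made by Sertoli cells, by 0.48, and the IGF-binding Igfbp5 and Igfbp7 by 0.41 and 0.35. Without A10 replicate 3 and BA50 replicate 2, Inha (0.34, adjusted p = 0.063) and Igfbp5 (0.31, adjusted p = 0.0575) did not pass. Sfrp2, a secreted WNT antagonist, had the lowest difference of the list in B0 compared to A0 (-0.54) and the highest in BA50 compared to B0 (0.46). Its samples overlapped, at 1.72 to 8.38 FPKM in A0, 0.87 to 3.66 in B0 and 1.46 to 9.47 in BA50. In both comparisons limma passed 0 of the 17 at an adjusted p under 0.05. Of 18 tested ligands of the same families 5 rose and 0 fell, against the same shares of all genes. The rises were led by Bmp6 (0.74) and Fgf7 (0.65), with the cytokine Lif (0.53), the second CSF1R ligand Il34 (0.43) and Fgf10 (0.28). The extremes of the 18 ligands were Wnt4 (-0.41) and Vegfa (0.99) in B0 compared to A0, and Vegfa (-0.93) and Il34 (0.36) in BA50 compared to B0.

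Genes that respond to these pathways were also listed. Of 15 tested, 6 rose after busulfan, where 13.3% of all genes did. These were the FGF feedback genes Spry2 (0.49), Spry4 (0.34) and Dusp6 (0.37) and the BMP targets Smad6 (0.44) and Id1 (0.35). The last was Etv5 (0.28), a GDNF and FGF target. Etv5 did not pass without the same 2 libraries (0.22, adjusted p = 0.0652) or after rescaling to the same sum (0.24, adjusted p = 0.0933). The 1 that fell was Id4, a BMP target that marks spermatogonial stem cells. Its mean was 9.57 FPKM in A0, 11.1 in A10 and 10.2 in A50, and 3.99, 3.30 and 3.31 FPKM in B0, BA10 and BA50. Id4 fell by 1.32 ± 0.07 (SE), with a limma adjusted p of 1.06e-09, and it also passed the stricter limits. The extremes were Id4 (-1.08) and Id2 (0.57) in B0 compared to A0, and Egr1 (-0.76) and Smad6 (0.59) in BA50 compared to B0.

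Over all 4 lists, 19 of 70 tested genes rose and 6 fell after busulfan averaged over AOS, against 13.3% higher and 24.8% lower among all genes. At single AOS concentrations limma passed 1 of the 70 in B0 compared to A0, 6 in BA10 compared to A10 and 9 in BA50 compared to A50. Of all 15790 genes, 2173, 2987 and 3143 passed in these comparisons. After rescaling to the same sum Cxcr4, Insr, Igfbp7, Fgf10 and Id1 did not pass either (adjusted p = 0.0515 to 0.118), and after quantile normalization Acvr2a, Fgfr4 and Igfbp7 did not (adjusted p = 0.0595 to 0.207). Rescaling gave 13 of the 70 higher and 6 lower, with 1334 and 4231 of all genes. Quantile normalization added other genes and gave 27 higher and 4 lower, with 3658 and 3441 of all genes. The counts were 25 and 6 without A10 replicate 3 and BA50 replicate 2, and 0 and 5 after centring on Sertoli cell markers, where 2 genes were higher and 8 lower at an unadjusted p under 0.05. In the AOS comparisons limma passed 0 of the 70. At an unadjusted p under 0.05, 2 were higher and 19 lower in BA50 compared to B0, and 0 were higher and 21 lower for AOS averaged over busulfan, which compares to 24.3% and 33.5% of all genes in either direction.

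**Figure D3:**
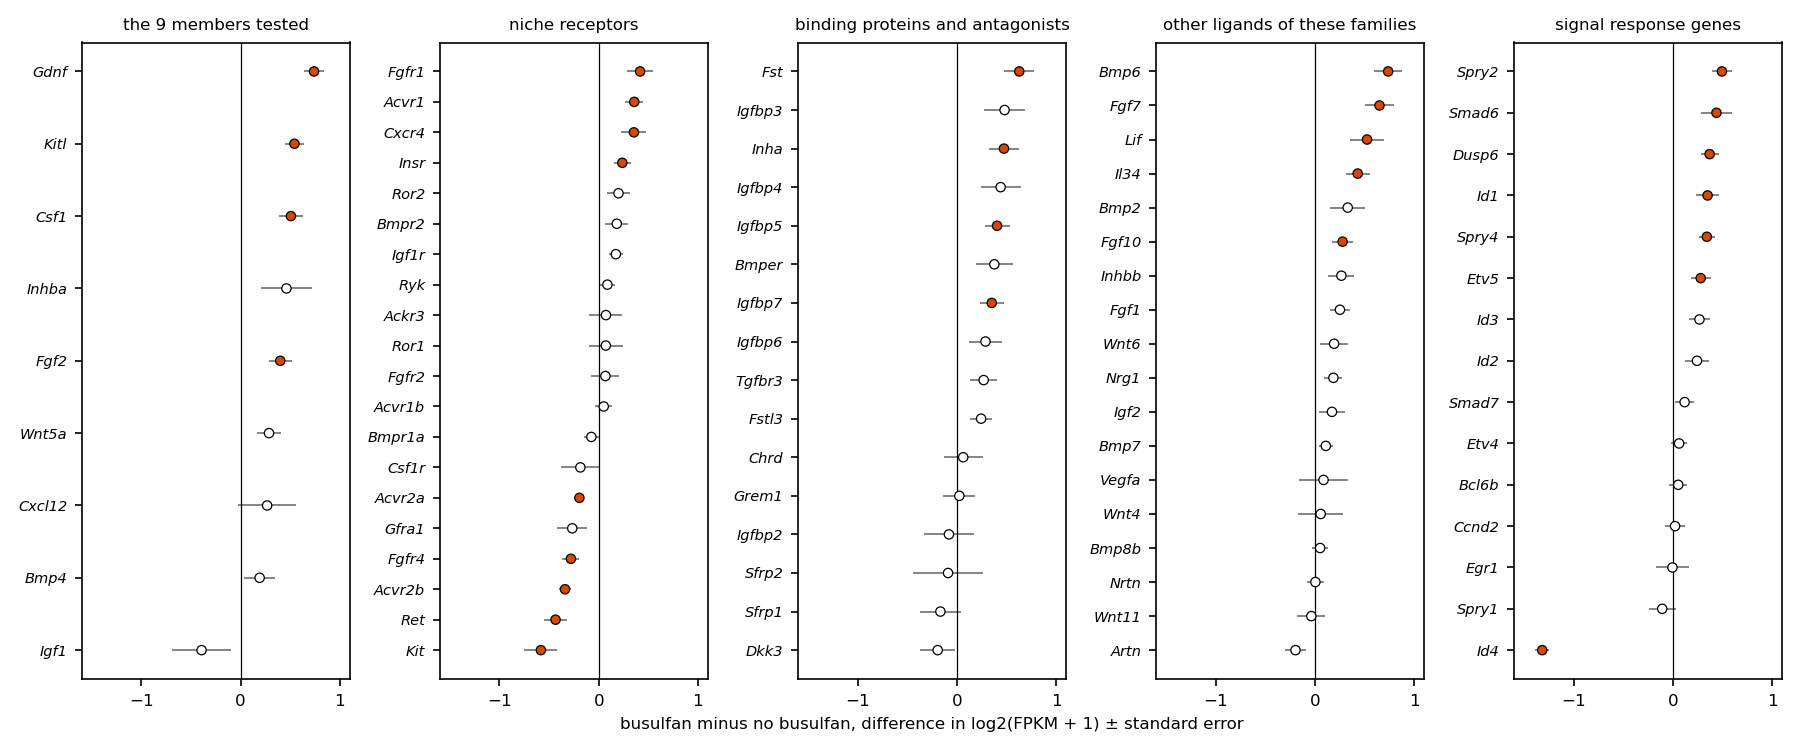
Busulfan difference in log2(FPKM + 1), averaged over AOS, of the 9 members tested and of genes of 4 pathway lists, with standard errors, each gene on its own line. Filled points passed a limma adjusted p under 0.05, and Id4 (-1.32) lies farthest from 0.

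The members followed the cell type markers differently across the 18 samples, as correlations of log2(FPKM + 1) with the mean level of each marker list described. These points share the busulfan split, so no p is given. Gdnf and Kitl both had a Pearson's r of -0.81 with spermatocyte markers and -0.75 with spermatogonium markers, and Csf1 had -0.74 with spermatocyte markers. With Sertoli cell markers r was 0.34 for Gdnf and 0.55 for Kitl, and with Leydig cell markers it was 0.50 and 0.67. With spermatid markers it was 0.55 for Gdnf, 0.20 for Kitl and -0.63 for Igf1. Igf1, Cxcl12 and Bmp4 followed stromal fibroblast markers (0.86, 0.82 and 0.78) and macrophage markers (0.77, 0.73 and 0.75). The stromal sum was lowest in BA50 replicate 2, where Cxcl12 and Igf1 were lowest too. Sertoli cell markers were low in A10 replicate 3, where Gdnf was 3.44 FPKM and Kitl 29.15 FPKM. For Kitl only A50 replicate 1, at 28.79 FPKM, was lower. The part of cell composition in the differences was not tested.

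**Figure D4:**
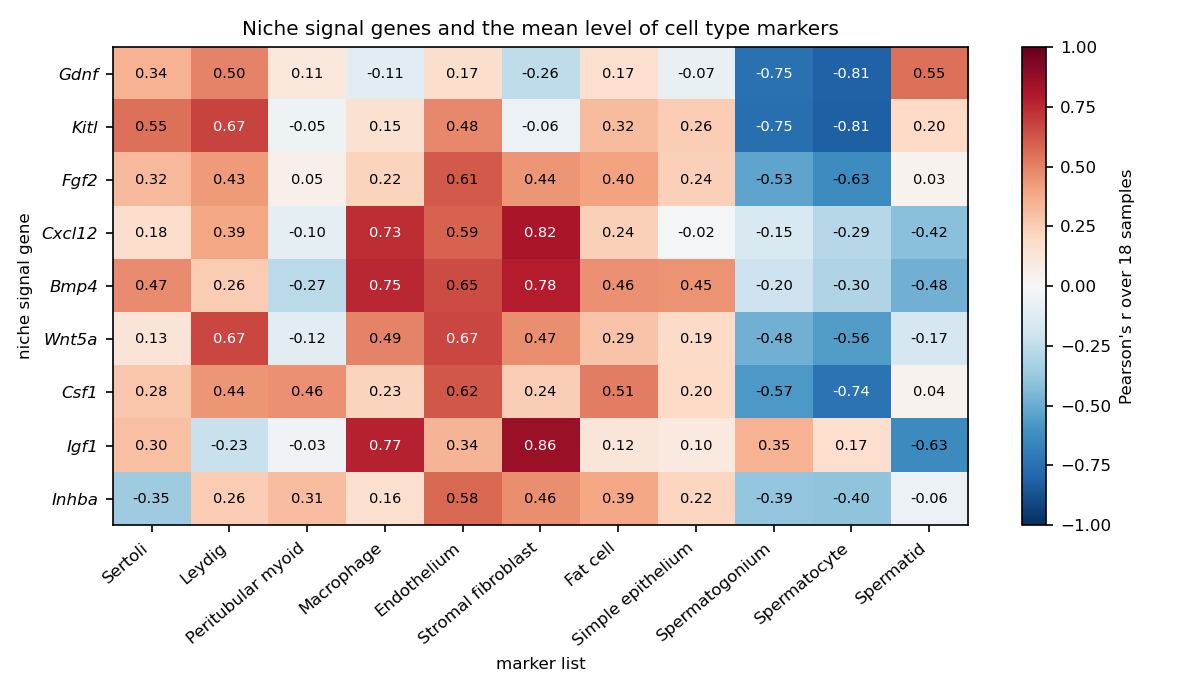
Pearson's r over 18 samples between each of the 9 members tested (rows) and the mean log2(FPKM + 1) of each marker list (columns), with red for positive and blue for negative values. Gdnf and Kitl are most negative with spermatocyte markers (-0.81 each), and Igf1 is most positive with stromal fibroblast markers (0.86).

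Among the members themselves, Gdnf was most alike Kitl (r = 0.79) and Csf1 (r = 0.72), and Cxcl12 was most alike Wnt5a and Bmp4 (r = 0.68 each). Over all tested genes with a symbol, the 3 whose pattern was most like that of each member over the 18 samples were taken. They were Slc6a6 (r = 0.95), Akr1c18 and Btc for Gdnf, and Pgrmc1 (r = 0.96), Aox1 and Rab10 for Kitl. For Csf1 they were Plaur (r = 0.96), Slc25a3 and Lmna, and for Fgf2 they were P2rx7 (r = 0.91), Osbpl5 and Pdgfc. Those of Cxcl12 were Tlr2 (r = 0.92), Asap3 and Ldlrad4, those of Bmp4 were Adam15 (r = 0.94), Paqr4 and Rps3a1, and those of Wnt5a were Tmed5 (r = 0.92), Trps1 and Cd47. Igf1 was most alike Sec16b (r = 0.94), Igsf10 and Ccl12, and Inhba was most alike Neu2 (r = 0.93), Rgs16 and Prrx1.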

How the data were processed

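The members and gene lists were chosen with earlier results of these data known. Each sample's group and replicate number came from its labels. The authors deposited 1 table of FPKM values with 2 decimals. The submitters' processing notes name HISAT, Bowtie2, RSEM and the build GRCm38.p5, with no role or order. The supplementary methods name SOAPaligner and RPKM instead. FPKM sums per sample were 463970 to 511274, and read counts were not used here, so the depth is unknown and no interval or floor was taken from it. A 0 in the table was taken as listed at 0.

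Genes that reached 1 FPKM in 3 or more samples were tested on log2(FPKM + 1), a scale that understates the change of low genes, with limma 3.58.1 in R 4.3.3 (lmFit, eBayes with trend, 1 coefficient per group over 18 samples). Adjusted p-values are Benjamini-Hochberg over the 15790 genes. Exact two-sided permutation tests were made for single members, 90 in all, not adjusted. The study's own test needs read counts and was not run. Of the gene numbers, 20656 found a symbol and 155 did not. Promoters came from RefSeq (GRCm38.p6) and exons from GENCODE on the same chromosomes. All 10 members were named, with list genes named at the extremes of B0 vs A0 and BA50 vs B0, fixed receptors, and the 3 most alike genes, and list genes past the limit after busulfan were named after their values were seen. 1 gene of the lists stands in the counts and is not reported here. Same-numbered samples did not deviate together in general (r from -0.43 to 0.56 over 21 pairs, 9 of them over 0.1), so replicate numbers were not used as a block in the fit. Those of BA50 and B0 did more than the others, with r of 0.56, 0.42 and 0.14 (mean 0.37). Alternatives were other scalings, filters, pseudocounts, limits and sample subsets. Figures were made with Python 3.11.15 and matplotlib 3.10.9.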

Additional observations from a re-analysis of the deposited data

How the results depend on the processing

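The rise of Gdnf after busulfan, averaged over AOS, passed an adjusted p under 0.05 under all alternatives run, with values from 0.51 to 0.87 and adjusted p-values of at most 0.0207. The counts of members changed as follows. Fitting only the groups compared gave 1 member at an adjusted p under 0.05 in B0 vs A0, 1 in BA10 vs A10 and 2 in BA50 vs A50, and 0 past the stricter limits in BA50 vs A50. Centring on Sertoli cell markers gave 0 in BA10 vs A10, 1 in BA50 vs A50, 1 for busulfan averaged over AOS, and 0 past the stricter limits in BA50 vs A50. It also turned the sign of Gdnf in A10 vs A0 (0.57) and A50 vs A0 (0.072), of the Gdnf difference between AOS changes at 10 μg/mL (-0.22), and of Bmp4 for busulfan (-0.034). With A10 replicate 3 also left out, an alternative chosen after seeing the data, these were 0, 1, 2 and 0 members, Gdnf 0.28 in A10 vs A0 and 0.072 in A50 vs A0, and Bmp4 -0.015. An adjusted p under 0.05 with no fold limit called 2, 4 and 4 members in BA10 vs A10, BA50 vs A50 and for busulfan averaged over AOS. Quantile normalization turned Gdnf in A10 vs A0 (0.041) and gave 5 members for busulfan averaged over AOS, with Wnt5a added. Leaving out both A10 replicate 3 and BA50 replicate 2, added after seeing the data, gave Gdnf 0.01 in A10 vs A0, 1 member in BA10 vs A10, 0 past the stricter limits in BA50 vs A50, and 6 for busulfan averaged over AOS, and Kitl did not pass in BA50 vs A50 (adjusted p = 0.073). Over single samples left out, members at an adjusted p under 0.05 numbered 1 to 2 in BA10 vs A10, 2 to 4 in BA50 vs A50, 4 to 5 for busulfan averaged over AOS and 0 to 1 for AOS, those past the stricter limits in BA50 vs A50 numbered 0 to 1, and Gdnf in A10 vs A0 ran from -0.21 to 0.034. The count in BA10 vs A10 was 1 without A10 replicate 3 or BA10 replicate 2, and that in BA50 vs A50 was 2 without A50 replicate 2 or BA50 replicate 1. The causes were not tested. The replicate block changed no count of members, and with it Gdnf in BA50 vs B0 had an adjusted p of 0.123. A block in B0 and BA50 only was added after seeing the data. Over all alternatives but single samples left out, that block included, Gdnf in BA50 vs B0 was 0.55 to 0.75. The limma adjusted p was at least 0.0957. Depth is unknown, and so is the counting precision of members near 1 FPKM. The largest SEs among the members for busulfan averaged over AOS were 0.30 for Igf1, 0.29 for Cxcl12 and 0.26 for Inhba.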
